A study of Mus musculus with 8 samples.

Results

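Acetylation of histone H3 at lysine 9 (H3K9ac) in small intestinal crypts was compared between fasted and fed mice that had received tetracycline. It was measured by CUT&Tag: a transposase is tethered by an antibody to nucleosomes that carry the mark, cuts and tags the DNA there, and the released fragments are sequenced. The comparison used 2 of the 8 samples of the study and 4 of its 16 peak lists. Both samples came from male C57BL/6J mice, 9 weeks old, given tetracycline for 21 days; one sample (Fed) was from fed mice and the other (Fast) from mice fasted for 24 h. The other 6 samples hold H3K9ac in the same feeding states without tetracycline and H3K27ac, acetylation of lysine 27, in all 4 states. Peaks on chromosomes 1 to 19, X and Y of the mouse genome build GRCm38 were merged wherever peaks of the 4 lists overlapped. This gave 179451 regions, against 348617 over all 16 lists. A region was assigned to fasting when both Fast lists and no Fed list had a peak in it, and to the fed state when both Fed lists and no Fast list had one.

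Histone acetylation loosens the contact of histones with DNA and is bound by proteins that help start transcription. H3K9ac, laid down largely by the Kat2a and Kat2b acetyltransferases, lies mostly at the starts of active genes, while H3K27ac also marks active enhancers. Crypts are the pockets of the intestinal lining that hold its stem cells, Paneth cells and dividing progenitors. Fasting moves cells from sugar to fatty acids as fuel, and tetracycline is an antibiotic that depletes gut bacteria.

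Each group held 1 sample with 2 peak lists, called here Fed 1, Fed 2, Fast 1 and Fast 2. The numbers stand only in the names under which the lists were deposited, and whether lists 1 and 2 come from different mice is not stated. With 2 lists against 2, no two-sided permutation p can go below 0.33, so counts and values per list are given and no difference is tested. The depth behind a list is unknown. The absence of a called peak does not show the absence of the mark. In crypts, a peak added by more cells of a type and a peak added by more of the mark per cell cannot be told apart.

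The sequences before 8 gene starts on which the results below turn are shown first. Each line gives the 250 bases upstream of the start listed by RefSeq for GRCm38.p6, 5′ to 3′ on the strand of the gene, with every CG dinucleotide in capitals. CG dinucleotides are shown because starts rich in them are the usual place of this mark. H3K9ac peaks of the region at Pdk4 covered over 2 times as many bases in both Fast lists (chr6:5496279-5496528, minus strand), and those at Hkdc1 over 2 times as many in both Fed lists (chr10:62422458-62422707, minus strand). Ccl28 (chr13:119623569-119623818, plus strand), Agr2 (chr12:35992675-35992924, plus strand) and Mex3b (chr7:82867083-82867332, plus strand) had a peak in both Fast and no Fed list. Esrra (chr19:6921809-6922058, minus strand), Id3 (chr4:136143572-136143821, plus strand) and Ciart (chr3:95882229-95882478, minus strand) had one in both Fed and no Fast list.

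Pdk4: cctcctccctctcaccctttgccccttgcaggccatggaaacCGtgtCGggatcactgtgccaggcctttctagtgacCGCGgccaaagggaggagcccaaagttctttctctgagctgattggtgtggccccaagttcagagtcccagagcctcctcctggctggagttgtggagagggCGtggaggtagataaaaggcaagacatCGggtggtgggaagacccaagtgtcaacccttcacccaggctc

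Hkdc1: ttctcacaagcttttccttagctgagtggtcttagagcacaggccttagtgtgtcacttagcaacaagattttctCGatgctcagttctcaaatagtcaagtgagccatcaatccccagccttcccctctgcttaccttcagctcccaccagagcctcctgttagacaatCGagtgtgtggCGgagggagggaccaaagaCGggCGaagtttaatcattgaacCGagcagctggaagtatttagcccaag

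Ccl28: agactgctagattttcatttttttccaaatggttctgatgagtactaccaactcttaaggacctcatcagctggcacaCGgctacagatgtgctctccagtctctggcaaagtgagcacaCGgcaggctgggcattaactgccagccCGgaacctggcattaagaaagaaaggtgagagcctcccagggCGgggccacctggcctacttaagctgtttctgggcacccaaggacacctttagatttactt

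Agr2: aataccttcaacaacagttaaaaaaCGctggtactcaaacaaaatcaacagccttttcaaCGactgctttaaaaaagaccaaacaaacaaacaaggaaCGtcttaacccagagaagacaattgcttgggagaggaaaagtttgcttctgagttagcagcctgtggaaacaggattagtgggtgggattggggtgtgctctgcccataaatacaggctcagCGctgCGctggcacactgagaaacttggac

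Mex3b: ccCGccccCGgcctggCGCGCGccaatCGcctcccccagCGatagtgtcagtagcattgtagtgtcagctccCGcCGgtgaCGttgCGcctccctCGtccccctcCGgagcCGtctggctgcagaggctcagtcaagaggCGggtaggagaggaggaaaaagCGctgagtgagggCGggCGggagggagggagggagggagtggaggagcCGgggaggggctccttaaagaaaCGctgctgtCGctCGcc

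Esrra: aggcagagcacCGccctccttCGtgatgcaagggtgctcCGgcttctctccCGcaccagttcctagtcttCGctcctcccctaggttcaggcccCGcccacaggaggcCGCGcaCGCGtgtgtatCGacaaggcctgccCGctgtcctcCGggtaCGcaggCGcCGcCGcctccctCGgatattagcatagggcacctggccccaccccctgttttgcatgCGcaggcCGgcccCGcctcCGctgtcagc

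Id3: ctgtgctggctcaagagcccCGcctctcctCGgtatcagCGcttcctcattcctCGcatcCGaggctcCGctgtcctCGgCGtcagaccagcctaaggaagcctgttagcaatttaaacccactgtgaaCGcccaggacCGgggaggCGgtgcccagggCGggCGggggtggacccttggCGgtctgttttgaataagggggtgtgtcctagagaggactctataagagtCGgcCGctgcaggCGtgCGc

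Ciart: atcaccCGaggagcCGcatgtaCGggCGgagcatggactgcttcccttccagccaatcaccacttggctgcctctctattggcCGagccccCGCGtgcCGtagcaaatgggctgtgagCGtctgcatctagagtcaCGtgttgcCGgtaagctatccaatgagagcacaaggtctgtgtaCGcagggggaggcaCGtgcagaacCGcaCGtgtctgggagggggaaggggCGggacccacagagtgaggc

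Mex3b and Esrra held 22 CG dinucleotides each in this window, Id3 held 18 and Ciart 16. Pdk4 and Hkdc1 held 6 each, Agr2 held 5 and Ccl28 held 4. Over all 17492 protein-coding genes with a listed start, the median was 10.

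The 4 lists differed in size within a feeding state as much as between states. Fed 1 held 24643 peaks, Fed 2 54158, Fast 1 97764 and Fast 2 53313. The groups overlapped, since Fed 2 held more peaks than Fast 2. The mean log2 ratio of peak number, Fast over Fed, was 0.98 with a pooled SD between lists of 0.72 (n = 2 lists per group). It was 1.99 between lists 1 and -0.023 between lists 2. Peaks covered 21.5 Mb in Fed 1, 37.7 Mb in Fed 2, 47.2 Mb in Fast 1 and 30.5 Mb in Fast 2, a mean log2 ratio of 0.41 ± 0.51 (pooled SD, n = 2 lists per group). This ratio was 1.13 between lists 1 and -0.31 between lists 2. Without Fed 1, Fed 2, Fast 1 and Fast 2 in turn it was 0.0089, 0.82, 0.097 and 0.73, and that of peak number 0.41, 1.55, 0.55 and 1.42.

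Fast lists were set apart by very short peaks. The narrowest peaks were 200 bp wide, and peaks of just this width made up 0.0243% of Fed 1, 1.73% of Fed 2, 20.3% of Fast 1 and 31.2% of Fast 2. For H3K9ac without tetracycline these shares were 0.0058%, 1.45%, 17.2% and 1.32%, and the groups overlapped. For H3K27ac they were 0.0031%, 0%, 0.862% and 0.0354% with tetracycline, and 0.0028%, 0%, 11.8% and 0.0036% without it. The median peak width was 728 bp in Fed 1, 522 bp in Fed 2, 413 bp in Fast 1 and 303 bp in Fast 2. With peaks of at least 500 bp, the lists held 19405, 29090, 35279 and 18460 peaks in the same order, and the log2 ratio fell to 0.10 ± 0.55 (pooled SD, n = 2 lists per group). The number of genes with a peak at the start hardly moved with the size of the list. It was 9508 in Fed 1, 10686 in Fed 2, 11188 in Fast 1 and 9209 in Fast 2, of 21887 protein-coding genes. Here and below, either end of a gene counted as its start where no start is listed (4395 genes). The share of peaks that lay at gene starts was 37.9% in Fed 1, 20.8% in Fed 2, 12.8% in Fast 1 and 17.6% in Fast 2. The groups did not overlap in that share, and the mean difference was -14.2 percentage points with a pooled SD between lists of 8.91 (n = 2 lists per group). It was -25.2 percentage points between lists 1 and -3.21 between lists 2, -5.61 without Fed 1 and -22.8 without Fed 2. With peaks of at least 500 bp it was -3.41.

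**Figure D1:**
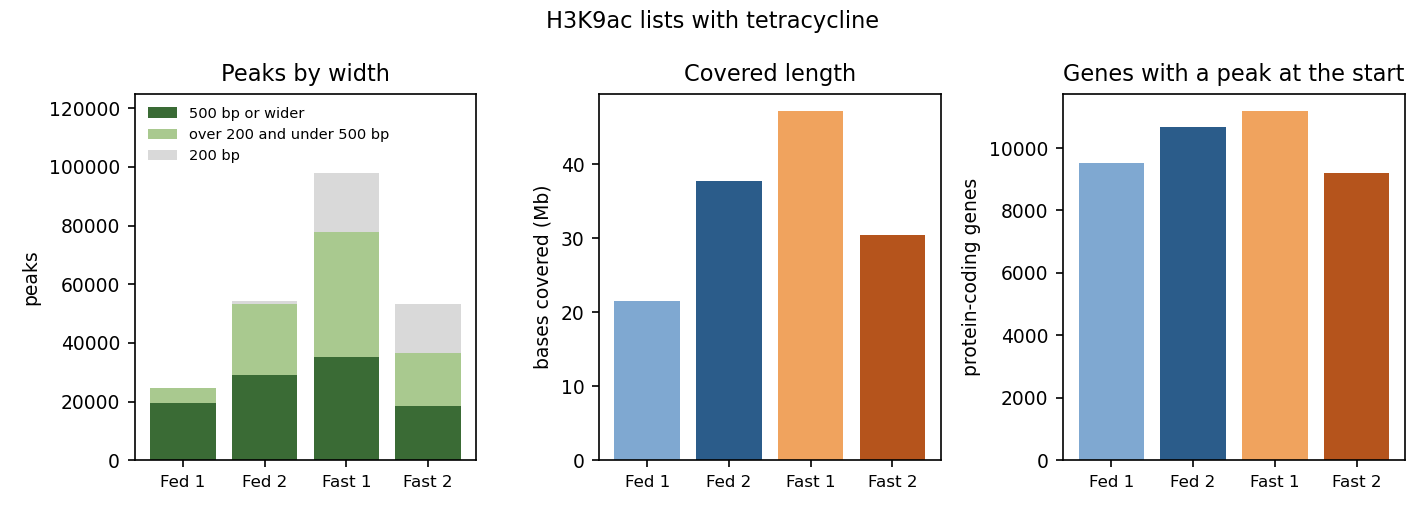
Number of H3K9ac peaks by width (left, stacked), bases covered by peaks in Mb (centre) and protein-coding genes with a peak within 1 kb of the gene start (right) in each of the 4 lists with tetracycline. Either gene end counted where no start is listed. Peak number runs from 24643 to 97764 while genes with a peak run from 9209 to 11188, and the grey part, peaks 200 bp wide, is visible in the Fast lists.

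Few regions were in both lists of 1 state and no list of the other. Both Fast lists and no Fed list had a peak in 2869 regions, 1.60% of all, and both Fed lists and no Fast list in 1359 regions, 0.757%. Fed 2 and Fast 1 alone held 3380 regions (1.88%) and Fed 2 and Fast 2 alone 2027 (1.13%). Fed 1 and Fast 1 alone held 1625 (0.906%) and Fed 1 and Fast 2 alone 887 (0.494%). The feeding classes thus did not stand out in number from pairs of lists that cross the states. A single list held 154680 regions (86.2%), of which Fast 1 alone gave 75933, and all 4 lists shared 6814 (3.80%). The numbers of shared regions did not sort by state, though a larger list can share more. Fast 1 shared 12235 regions with Fast 2 and 13951 with Fed 2, and Fed 1 shared 11431 with Fed 2 and 11602 with Fast 1. Fast 2 shared 11488 with Fed 2 and 9754 with Fed 1. Fed 2 and Fast 2 were of like size, with 52531 and 52395 regions. Fed 1 shared 21.8% of the regions of Fed 2 and 18.6% of those of Fast 2. Fast 1 shared 26.6% of the regions of Fed 2 and 23.4% of those of Fast 2.

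The excess of regions in both Fast lists was not kept when short or low-scoring peaks were left out. With peaks of at least 500 bp, the class of both Fast lists held 1099 of 63015 regions (1.74%) and that of both Fed lists 1113 (1.77%). Pairs across the states were again of like number. Fed 2 and Fast 1 alone held 1377, Fed 2 and Fast 2 alone 1191, Fed 1 and Fast 1 alone 1018 and Fed 1 and Fast 2 alone 713. Of the 1099 regions in both Fast lists, 917 (83.4%) belonged to the same class with all peaks. Only 916 (31.9%) of the 2869 belonged to it with wide peaks. In the fed class, 905 of the 1113 (81.3%) and 905 of the 1359 (66.6%) were shared. When every list was reduced to its 24643 top-scoring peaks, the size of the smallest list, the class of both Fast lists held 300 regions and that of both Fed lists 2258, the reverse order. Leaving out a list leaves a single list in its group, so that the counts must grow. Regions in Fast and not Fed numbered 3852 without Fed 1, 4483 without Fed 2, 39179 without Fast 1 and 79127 without Fast 2. The reverse class numbered 35620, 9972, 3569 and 2509 in the same order. The class of the state left with a single list was the larger each time. That class then needs a peak in 1 list and the other class in 2, so their order says nothing about feeding.

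**Figure D2:**
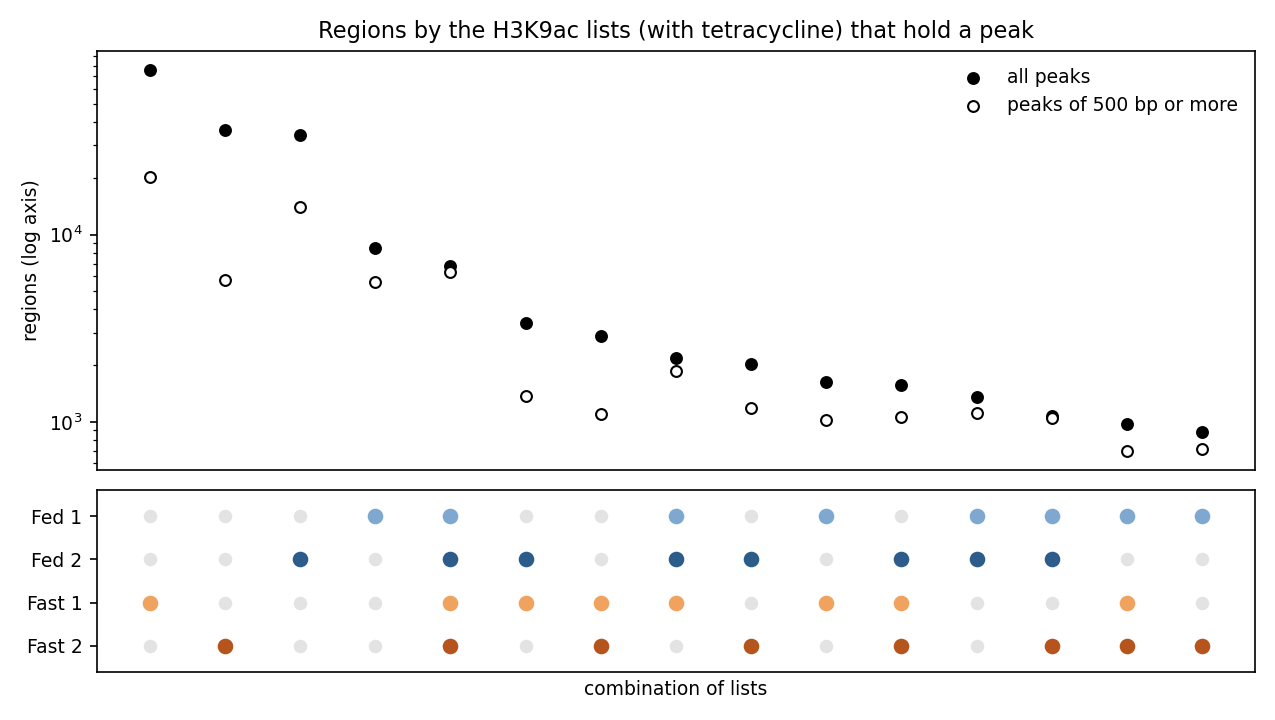
Number of regions (log axis) for each combination of the 4 H3K9ac lists with tetracycline, with all peaks (filled) and with peaks of at least 500 bp (open); coloured points below mark the lists that hold a peak. The combination of both Fast lists alone falls from 2869 to 1099 regions, and that of both Fed lists alone from 1359 to 1113.

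The regions of both classes lay mostly away from gene starts. Of the 2869 regions in both Fast lists, 349 (12.2%) lay within 1 kb of a gene start, 1420 (49.5%) elsewhere within a gene and 1100 (38.3%) between genes. Of the 1359 regions in both Fed lists, these shares were 22.4%, 47.7% and 29.9%. Regions in all 4 lists were at gene starts in 80.8% of cases, and all regions in 8.78%. Peaks that made up the class of both Fast lists had median widths of 507 bp in Fast 1 and 494 bp in Fast 2 and median score percentiles within their list of 41.7 and 43.1. In the class of both Fed lists the median widths were 727 bp in Fed 1 and 688 bp in Fed 2, and the score percentiles 45.0 and 62.4. Peaks in regions shared by all 4 lists ranked higher, with median score percentiles between 77.5 and 90.9. In both classes, then, the peaks lay below the shared ones in rank.

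The highest-ranked regions away from gene ends, present in the class with all peaks and with wide peaks, were 917 to 4290 bp wide. For both Fast lists they were within Tmem131 (chr1:36919600-36921062) and Rpe (chr1:66704220-66705136), 41145 bp from Gvin1 (chr7:106111101-106115390) and 8215 bp from Enpp1 (chr10:24628747-24629699). The region near Gvin1, which encodes a large interferon-induced GTPase, was the widest of them, with peaks of 3694 bp in Fast 1 and 3981 bp in Fast 2. For both Fed lists they were within Nln (chr13:104028669-104030646), Actn4 (chr7:28924593-28925859), Fbxo34 (chr14:47473831-47475158) and Wsb2 (chr5:117362875-117364474). In Wsb2 the Fed peaks were 932 and 1586 bp wide. Of these 8 regions, 7 had an H3K27ac peak in all 4 lists with tetracycline, and the region near Gvin1 in 3 of the 4.

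Whether the same regions followed feeding in readouts that had not defined them was then described. H3K27ac from the same feeding states with tetracycline had a peak in 33.4% (Fed 1), 44.1% (Fed 2), 46.2% (Fast 1) and 39.9% (Fast 2) of the 2869 regions of both Fast lists. Fed and Fast overlapped. The mean difference, Fast minus Fed, was 4.36 percentage points, against 0.53 over all 179451 regions. In the 1359 regions of both Fed lists, H3K27ac had a peak in 64.4%, 73.5%, 69.8% and 63.4% in the same order, a mean difference of -2.35 percentage points with overlapping groups. H3K9ac without tetracycline had a peak in 8.02% (Fed 1), 29.3% (Fed 2), 22.8% (Fast 1) and 20.1% (Fast 2) of the 2869 regions, and in 27.7%, 57.2%, 37.5% and 34.4% of the 1359 regions. The groups overlapped there too, and the spread between both Fed lists was wider than the difference between the means of the states.

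Region by region, the fasting class recurred rarely. Of the 2869 regions, 68 (2.37%) had an H3K27ac peak in both Fast and no Fed list, against 0.561% of all regions, and 21 (0.732%) in both Fed and no Fast list, against 0.362%. H3K27ac was in all 4 lists at 771 of the 2869 (26.9%) and in none at 1315 (45.8%). Without tetracycline, H3K9ac was in both Fast and no Fed list at 55 (1.92%), against 0.536% of all regions, and in both Fed and no Fast list at 35 (1.22%), against 0.523%. Of the 1359 regions of both Fed lists, 739 (54.4%) carried H3K27ac in all 4 lists, 20 (1.47%) in both Fed and no Fast list and 12 (0.883%) the reverse. H3K9ac without tetracycline repeated the fed class at 43 (3.16%) and gave the reverse at 30 (2.21%). With wide peaks, 41 of the 1099 regions of both Fast lists (3.73%, against 0.932% of all regions) had H3K27ac in both Fast and no Fed list and 12 (1.09%, against 0.651%) the reverse, while 515 (46.9%) had it in all 4 lists. H3K9ac without tetracycline repeated the class at 44 of the 1099, where 1.20% of all regions did so, and gave the reverse at 26 (2.37%). It repeated the wide-peak class of both Fed lists at 43 of 1113 (3.86%, against 1.36%) and gave the reverse at 29 (2.61%). Over all regions, 10.7% had H3K27ac in all 4 lists and 78.9% in none, and 26.9% of the wide-peak regions had it in all 4.

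**Figure D3:**
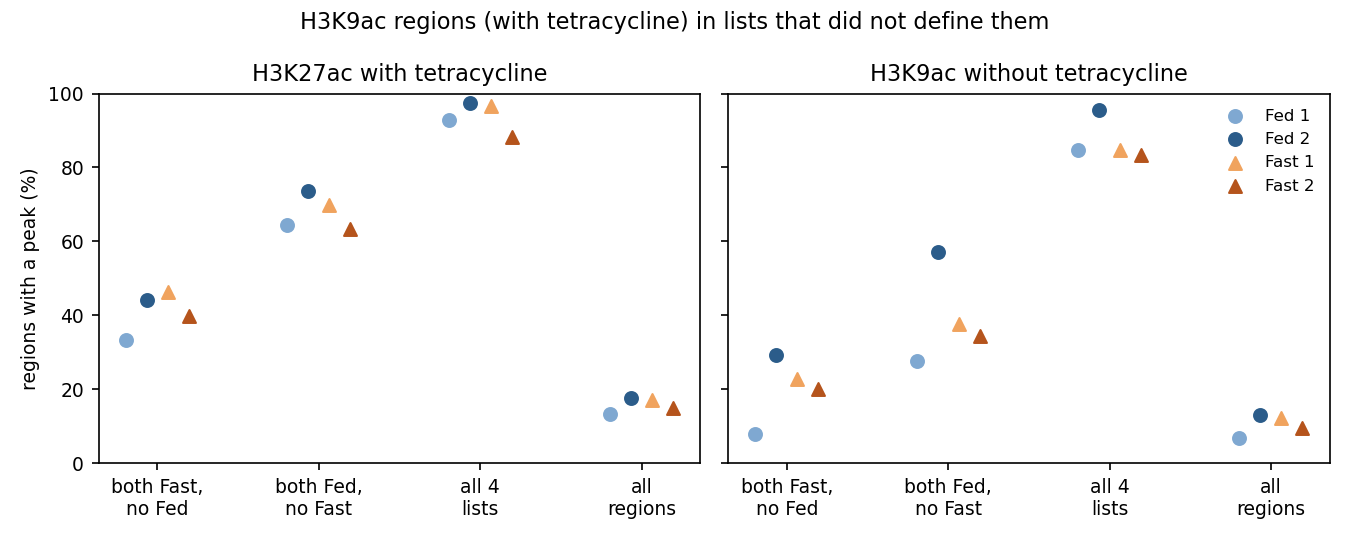
Percent of regions with a peak in each H3K27ac list with tetracycline (left) and each H3K9ac list without tetracycline (right), for the regions in both Fast lists, in both Fed lists, in all 4 lists and for all regions; circles are Fed and triangles Fast lists. Fed and Fast points overlap in both feeding classes, for H3K27ac between 33.4% and 46.2% in the class of both Fast lists and between 63.4% and 73.5% in that of both Fed lists.

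Where all 4 lists had a peak, a few regions differed in width by feeding. In the 6814 shared regions the median width, the bases covered by the peaks of a list, was 1195 bp in Fed 1, 1434 bp in Fed 2, 1219 bp in Fast 1 and 1530 bp in Fast 2. Widths did not overlap between states at 1262 regions that were wider in Fast (18.5%) and at 753 that were wider in Fed (11.1%). Both Fast lists were at least 1.5 times as wide as both Fed lists at 72 regions (1.06%), and the reverse held at 72 (1.06%). At the 2-fold limit, 9 regions were wider in Fast (0.132%), 8 of them at a gene start, and 19 were wider in Fed (0.279%), 10 of them at a gene start. Leaving out a list raised the 9 to 83 without Fed 1, 170 without Fed 2, 96 without Fast 1 and 34 without Fast 2. The 19 became 115, 33, 96 and 321 in the same order.

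Pdk4 stood first among the regions wider in Fast. It encodes pyruvate dehydrogenase kinase, which holds back the oxidation of glucose and is a classic gene of the fasted state. H3K9ac at its start covered 962 bp in Fed 1, 1105 bp in Fed 2, 3254 bp in Fast 1 and 3896 bp in Fast 2 (chr6:5493030-5497210). Both Fast lists lay above both Fed lists, with a mean log2 width ratio of 1.79. In Fast 1 the region held more than 1 peak, of which the highest-scoring within 1 kb of the start was 1937 bp wide, under 2 times the 1105 bp of Fed 2. The log2 ratio was 0.91 without Fast 2, since a narrower merged region is then measured, and 1.41 when every list was reduced to its 24643 top-scoring peaks. H3K27ac with tetracycline covered 1287 and 1110 bp in Fed and 1835 and 1751 bp in Fast, again without overlap. Without tetracycline, H3K9ac covered 1057 and 955 bp in Fed and 3418 bp in Fast 1, while Fast 2 had no peak.

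Tspan8, a tetraspanin of epithelial cells, was the region wider in Fast in both other readouts as well. Its H3K9ac with tetracycline covered 766 bp in Fed 1, 781 bp in Fed 2, 2160 bp in Fast 1 and 2184 bp in Fast 2 (log2 ratio 1.49). Without tetracycline, H3K9ac had no peak in Fed 1 and covered 1360 bp in Fed 2, 2089 bp in Fast 1 and 1817 bp in Fast 2. H3K27ac with tetracycline covered 1367 and 1354 bp in Fed and 2150 and 2342 bp in Fast. An uncalled peak in another readout was counted as 0 bp here and below. The other gene starts wider in Fast were those of Mllt6, a chromatin factor, Rtn4, which shapes the endoplasmic reticulum, Dnajb4, a chaperone of the Hsp40 family, and Heca, with the shared starts of Alkbh1, Nrp and Slirp and of Pgm3 and Rwdd2a. Their log2 ratios lay between 1.27 and 1.64. The region without a gene start was within Syce3. Over these 9 regions, H3K9ac without tetracycline was wider in both Fast lists at 3, narrower at 1 and overlapping at 5, and H3K27ac was wider at 2 and overlapping at 7. Over all 6814 shared regions, H3K9ac without tetracycline was wider in both Fast lists at 10.6% and narrower at 16.5%, and H3K27ac with tetracycline was wider at 19.8% and narrower at 8.20%.

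Hkdc1 and Pfkfb3, which act in sugar use, were among the genes wider in Fed. Hkdc1 encodes a protein of the hexokinase family, which carries out the first step of glucose use. Its H3K9ac covered 3310 bp in Fed 1, 3388 bp in Fed 2, 625 bp in Fast 1 and 1243 bp in Fast 2 (log2 ratio -1.93). Bridging gaps of up to 500 bp between peaks brought it to -0.99. It was -1.43 without Fast 1 and -2.42 without Fast 2. Without Fed 1 or Fed 2, no region over the start was shared by all the lists kept, so no ratio was obtained. The same held with the 24643 top-scoring peaks, with the better-scoring 0.5 of each list and when merging required 0.5 of the shorter peak. H3K27ac at Hkdc1 overlapped between states, with 3285 and 5003 bp in Fed and 2948 and 3470 bp in Fast. H3K9ac without tetracycline overlapped too, with 703 and 3893 bp in Fed and 1118 and 3590 bp in Fast. Pfkfb3, which makes the sugar phosphate that activates glycolysis, covered 1830 bp in Fed 1, 1845 bp in Fed 2, 776 bp in Fast 1 and 761 bp in Fast 2 (log2 ratio -1.26). Its H3K27ac was also narrower in Fast, with 941 and 1535 bp in Fed, no peak in Fast 1 and 417 bp in Fast 2. Its H3K9ac without tetracycline overlapped between states.

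The region within Exoc3l4 had the greatest difference of the 28. It covered 4143 bp in Fed 1, 5359 bp in Fed 2, 670 bp in Fast 1 and 627 bp in Fast 2 (log2 ratio -2.86). The region was narrower in both Fast lists in both other readouts. H3K9ac without tetracycline covered 5242 and 6488 bp in Fed and 1945 and 3662 bp in Fast. For H3K27ac with tetracycline the groups were barely apart, with 3307 and 4900 bp in Fed and 2117 and 3290 bp in Fast. Slc25a45, a mitochondrial carrier, covered 4494 bp in Fed 1, 4134 bp in Fed 2, 818 bp in Fast 1 and 974 bp in Fast 2 (log2 ratio -2.27), with overlapping widths in both other readouts. The other starts wider in Fed were those of Phospho1, a phosphatase known from bone mineralization, Jup, the junction protein plakoglobin, Osbpl5, a lipid transfer protein, and Asb13. Shared starts were those of Eef1d and Naprt, of Tonsl and Vps28 and of Naaladl1, Sac3d1 and Snx15. H3K27ac with tetracycline went the other way at Osbpl5, with no peak in Fed 1, 864 bp in Fed 2 and 1306 and 1057 bp in Fast. It did so at Eef1d and Naprt too, with 2686 and 2559 bp in Fed and 3010 and 3321 bp in Fast. Over the 19 regions, H3K9ac without tetracycline was narrower in both Fast lists at 4 and overlapping at 15. H3K27ac was narrower at 5, wider at 2 and overlapping at 12, beside the 8.20% narrower and 19.8% wider over all shared regions. For H3K9ac without tetracycline, 16.5% of all shared regions were narrower.

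**Figure D4:**
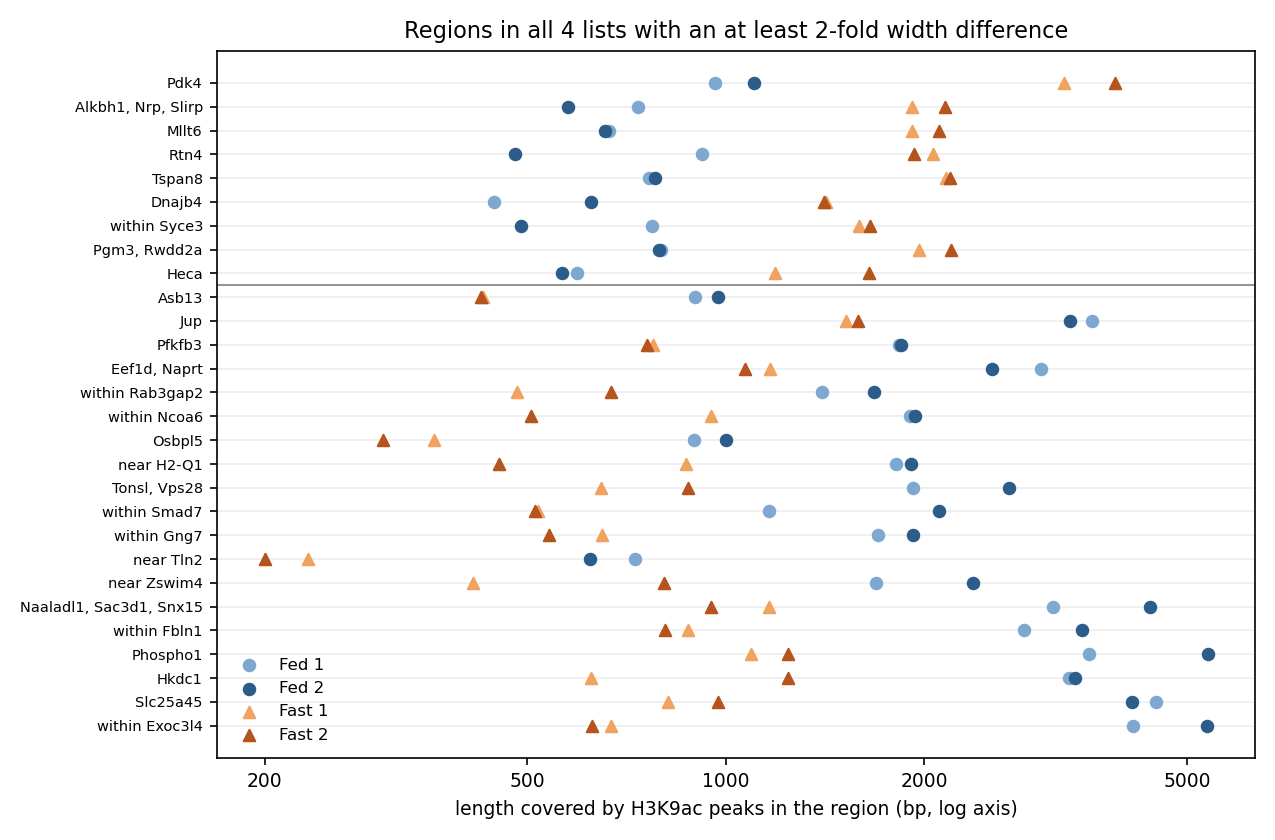
Length covered by H3K9ac peaks in bp (log axis) in each list with tetracycline at the 28 shared regions with an at least 2-fold difference between both lists of each state; circles are Fed and triangles Fast lists. Above the line are the 9 regions wider in Fast, headed by Pdk4, and below it the 19 wider in Fed, down to the region within Exoc3l4.

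Genes were then compared by a peak at the start. Of 21887 protein-coding genes, 354 (1.62%) had a peak in both Fast and no Fed list and 280 (1.28%) in both Fed and no Fast list. All 4 lists marked 6275 genes (28.7%) and none marked 7943 (36.3%). With wide peaks the order turned, with 240 genes (1.10%) for both Fast lists and 300 (1.37%) for both Fed lists. Of the 354, 189 (53.4%) were in the class of 240, and of the 280, 242 (86.4%) were in that of 300. With lists reduced to their 24643 top-scoring peaks, the counts were 64 and 1023. Without Fed 1, Fed 2, Fast 1 and Fast 2 in turn, the genes for Fast numbered 730, 1079, 927 and 1633, and those for Fed 1031, 526, 1661 and 800.

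H3K27ac at the same genes overlapped between feeding states. Of the 354 genes, 28.0% (Fed 1), 38.1% (Fed 2), 47.7% (Fast 1) and 32.8% (Fast 2) had an H3K27ac peak with tetracycline. Of the 280, 73.9%, 79.3%, 78.9% and 67.1% had one in the same order, and 162 (57.9%) had one in all 4 lists. Over all genes these shares were 44.1%, 49.0%, 50.4% and 42.4%, and 37.2% in all 4 lists. The 354 genes thus lay below all genes in every list, and the 280 above. The same class as for H3K9ac was met by 13 of the 354 genes (3.67%, against 0.708% of all genes) and by 3 of the 280 (1.07%, against 0.434%). The reverse class was met by 7 of the 354 (1.98%, against 0.434%) and by 3 of the 280 (1.07%, against 0.708%). Without tetracycline, H3K9ac had the same class at 15 of the 354 (4.24%, against 1.09% of all genes) and at 10 of the 280 (3.57%, against 1.65%), and the reverse class at 9 of the 354 and 4 of the 280.

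The highest-ranked genes in both Fast and no Fed list, in both the all-peak and the wide-peak class, were Ddx3y, Mex3b, Alg8, Magohb, Thg1l, Cnih1, Bcl7a, Mdc1, Msmb, Rpp40, Zfp239 and Apbb1ip. Alg8 adds glucose to the precursor of N-linked glycans, Magohb is a core protein of the exon junction complex, Thg1l and Rpp40 act on transfer RNA, and Cnih1 exports cargo from the endoplasmic reticulum. Mex3b, an RNA-binding protein, had peaks of 898 bp in Fast 1 and 1572 bp in Fast 2, and its nearest Fed peaks lay 53859 bp (Fed 1) and 59075 bp (Fed 2) from the start. Magohb had peaks of 1628 and 1317 bp in Fast and H3K27ac in all 4 lists with tetracycline. Apbb1ip, an adaptor of integrin activation in white blood cells, was the gene of the 12 whose H3K27ac with tetracycline and H3K9ac without it were also in both Fast and no Fed list. Its peaks were 958 bp in Fast 1 and 1150 bp in Fast 2. Msmb lay close to the limit, since its nearest Fed peaks were 1002 and 1161 bp away.

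Ddx3y, an RNA helicase on the Y chromosome, had peaks of 1193 bp in Fast 1 and 1754 bp in Fast 2 and none in Fed, although all mice were male. Of the other Y genes, Uty had a peak in all 4 lists, Eif2s3y in 1 Fed and 2 Fast lists and Kdm5d in 1 Fed list. Ddx3y had one in 11 of all 16 lists. Ddx3y is expressed in most tissues of males.

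The highest-ranked genes in both Fed and no Fast list were Dyrk1a, Dnajc22, Garem1, Dpy19l4, Id3, Nsmce4a, Esrra, Ralgapa2, Synpo, Pip5k1a, Tmbim1 and Pfdn5. Dyrk1a, a protein kinase, had peaks of 2719 bp in Fed 1 and 3011 bp in Fed 2, and the nearest Fast peaks lay 3360 bp (Fast 1) and 3355 bp (Fast 2) from the start. Id3, an inhibitor of basic helix-loop-helix transcription factors, had peaks of 2186 and 3175 bp in Fed. Esrra, the oestrogen-related receptor that drives genes of mitochondrial energy metabolism, had peaks of 1034 bp in Fed 1 and 3644 bp in Fed 2, with the nearest Fast peaks 1956 and 11499 bp away. These 3 genes had H3K27ac with tetracycline in all 4 lists and H3K9ac without tetracycline in all 4 lists. Of the 12 genes, Pfdn5, a subunit of the prefoldin chaperone, was alone in having H3K27ac with tetracycline in both Fed and no Fast list. Its H3K9ac peaks were 1405 and 1275 bp in Fed.

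The promoters of the genes in both Fed lists were rich in CG dinucleotides. Their median was 15 in the 250 bases before the start (228 of 280 genes with a sequence), beside 18 for genes in all 4 lists and 3 for genes in none. A GC box (GGGCGG, either strand) was found in 62.7%, 64.5% and 18.6% of these promoters, and in 43.7% of all 17492 listed promoters. The TATA motif (TATAAA, either strand) was found in 7.89%, 5.38% and 20.7%, and in 12.2% of all listed promoters. Overlap between matches of different motifs was not checked, and a match describes the letters only. For the genes in both Fast lists this comparison is void, because 256 of 354 (72.3%) have a listed sequence, fewer than 80%. Of all protein-coding genes, 79.9% have one, so the shares over all describe the listed promoters and not all genes.

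Among lists of genes with known roles, the genes of defence induced by microbes differed in number between states. A peak at the start was found at 4 of 16 in Fed 1, 4 in Fed 2, 9 in Fast 1 and 8 in Fast 2. Duoxa2, needed for the hydrogen peroxide-forming oxidase Duox2, Ccl28, a chemokine that draws antibody-producing cells, and Fut2, which adds fucose to the gut surface, were in both Fast and no Fed list. They were 3 of 16, against 1.62% of all genes. Pigr, Nlrp6, Myd88 and Il18 were in all 4 lists, and Saa1, Saa2, Saa3, Retnlb, Ccl20 and Lcn2 in none. The peaks behind the difference were mostly small. Duoxa2 had 252 bp in Fast 1 and 351 bp in Fast 2, Fut2 had 396 and 200 bp, and Ccl28 had 963 and 725 bp. Of the 3, Ccl28 alone stayed in the class with wide peaks. With lists reduced to their 24643 top-scoring peaks, the mean difference fell from 4.5 genes to 0. It was 2 genes with peaks of at least 500 bp and 0.5 genes with the better-scoring 0.5 of each list. H3K27ac with tetracycline marked 7 and 7 of the 16 in Fed and 6 and 7 in Fast, and H3K9ac without tetracycline 6 and 9 in Fed and 7 and 11 in Fast.

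Goblet cell genes went both ways. Agr2, which folds mucins, and Galnt12, which starts their sugar chains, were in both Fast and no Fed list, and Tff3, a secreted trefoil peptide, in both Fed and no Fast list. They were 2 of 12 and 1 of 12, against 1.62% and 1.28% of all genes. The same shares of all genes stand beside the class members of every list below. Agr2 rested on peaks of 200 bp in Fast 1 and 370 bp in Fast 2. Galnt12 had peaks of 977 and 859 bp, and Fed 2 had one 1070 bp from its nearer end. Tff3 had peaks of 895 bp in Fed 1 and 829 bp in Fed 2, and Fast 1 had one 1038 bp away. Both thus lay just outside the 1 kb limit in a list of the other state. The list as a whole had 3 of 12 marked in Fed 1 and 5 in each of the others, and Muc2, the main gel-forming mucin, had no peak at its start in any of the 4.

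Genes of fatty acid oxidation and PPAR targets were marked in both states: 20 of 26 in Fed 1, 22 in Fed 2, 22 in Fast 1 and 21 in Fast 2, with 18 in all 4 lists and none in either feeding class. Cpt1a, which brings fatty acids into mitochondria, was covered over 4496 bp in Fed 1, 3541 bp in Fed 2, 3477 bp in Fast 1 and 5457 bp in Fast 2. Its widths overlapped between states, unlike those of Pdk4. Ketone body genes were marked at 5, 4, 4 and 6 of 9. Sterol and fatty acid synthesis genes were marked at 14 and 15 of 20 in Fed, and at 17 in Fast 1 but 10 in Fast 2. Srebf2, Sqle, Fasn, Acly and Insig1 had a peak in every list but Fast 2. Genes of histone acetylation had 20, 21, 21 and 13 of 24 marked, again with Fast 2 apart. The insulin, FoxO and glucocorticoid list had 15, 14, 15 and 14 of 18, and Zbtb16, a transcription factor induced by glucocorticoids, was its member in both Fast and no Fed list, with peaks of 1272 and 1776 bp. H3K27ac with tetracycline at Zbtb16 was likewise in both Fast and no Fed list. Clock genes had 11, 14, 12 and 9 of 17, and Ciart, a repressor of the clock, was in both Fed and no Fast list with peaks of 1653 and 1592 bp. The nearest Fast peaks lay 1660 and 1691 bp from its start, and H3K27ac was present in all 4 lists.

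Stem cell genes were marked at 8 of 15 in Fed 1, 12 in Fed 2, 12 in Fast 1 and 10 in Fast 2, and none was in a feeding class. Axin2, Sox9, Rnf43, Lrig1, Cdk6 and Hopx were in all 4 lists. Lgr5 (477 bp), the marker of crypt base stem cells, and Ascl2 (1044 bp), their transcription factor, had a peak in Fast 1 only. No start is listed for Lgr5, so its peak may lie at either end of the gene. The score percentile of this peak was 9.18. Olfm4, another stem cell marker, had 430 bp in Fed 2 and 1090 bp in Fast 2 and none in the lists numbered 1. Cell cycle genes were marked at 9, 6, 10 and 10 of 12. Regeneration and YAP genes were marked at 6, 8, 7 and 6 of 17. Of these, Ly6a, a marker of regenerating epithelium, was in both Fast and no Fed list, at 725 and 593 bp of covered length, and had no peak in any H3K27ac list with tetracycline or H3K9ac list without it. Ly6a was not in the class with wide peaks. Clu, a marker of the same state, had 745 bp in Fast 1, and a Fast 2 peak lay 1154 bp away. No start is listed for Ly6a or Clu either.

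Markers of the intestinal epithelium were present in all 4 lists, while few Paneth cell genes were marked. The epithelial list had 9, 10, 10 and 9 of 10 marked, absorptive enterocyte genes 14, 16, 15 and 14 of 16, and all 14 intestinal identity factors were marked in every list. Paneth cell genes had 1, 1, 2 and 2 of 12, and Reg3g, an antibacterial lectin, had no peak in any of the 4 lists. Tuft cell genes had 2, 2, 3 and 3 of 12, and enteroendocrine genes 1, 2, 7 and 2 of 15. Housekeeping genes had 12, 10, 10 and 10 of 12, and antigen presentation genes of MHC class II 2, 2, 3 and 4 of 7. Of these 7, H2-DMb1 was in both Fast and no Fed list, with peaks of 656 bp in Fast 1 and 200 bp in Fast 2. It was not in the class with wide peaks. Immune markers were at 0 of 12 in Fed 1, 2 in Fed 2, 4 in Fast 1 and 2 in Fast 2. Cd3g, a chain of the T cell receptor complex, was in both Fast lists, and of the other T and killer cell markers Cd3e was in Fast 2, Lck and Gzma in Fast 1, Itgae in Fed 2 and Fast 1 and Nkg7 in Fed 2. Ptprc, Cd2, Cd79a, Ms4a1 and Csf1r were in no list. Stromal and endothelial markers were at 3 of 12 in Fast 1 and at 0 in the other lists, neuron and glia markers at 1, 2, 3 and 1 of 8, and markers of other tissues at 2, 2, 3 and 2 of 10. The part of immune and stromal cells in the differences of the Fast 1 list was not tested.

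**Figure D5:**
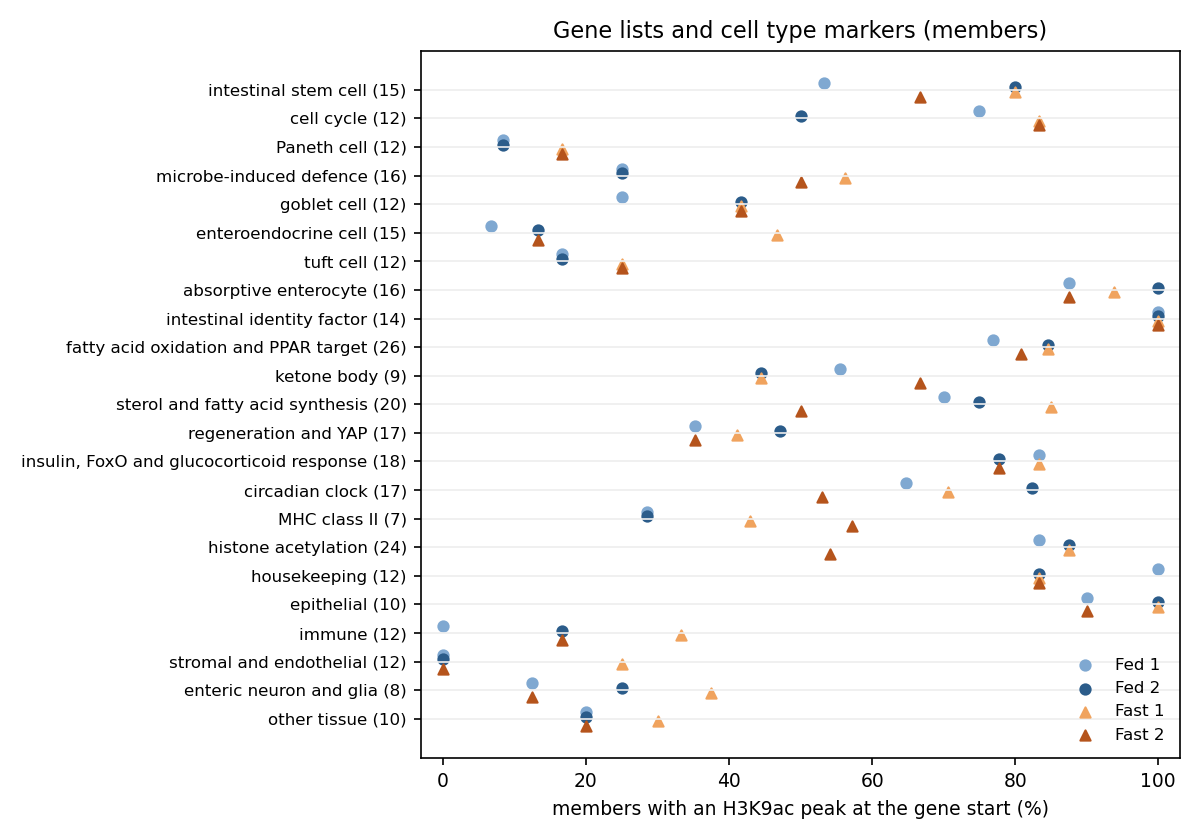
Percent of the members of each gene list with an H3K9ac peak within 1 kb of the gene start in each list with tetracycline; circles are Fed and triangles Fast lists, and the number of members stands in brackets. Either gene end counted where no start is listed. The genes of defence induced by microbes show 4 of 16 in each Fed list and 9 and 8 in the Fast lists, while the intestinal identity factors are at 14 of 14 in all 4 lists.

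Several regions of 1 class also lay at the same gene. At least 3 regions of the class of both Fast lists lay within 10 kb of or inside 42 of 21887 protein-coding genes. Among them were Rere, Gabbr2, Cd82 and Bcl2l15 with 4. The reverse class did so at 7 genes, which were Galnt10, Dyrk1a, Rreb1, Rab11fip3, Pak4, Nfe2l2 and Nat8. The class of both Fast lists held 2869 regions (1.60% of all) and the reverse class 1359 (0.757%), and the gene counts are not adjusted for this. Each gene named here was picked for at least 3 regions of 1 class, which raises its share of such regions. Fbxo34, named above for a region in both Fed lists, had 3 of 18 regions in the class of both Fast lists. Long genes hold more regions of every kind: Rere, 340 kb long, had 59 regions in all and Gabbr2, 329 kb long, had 41. Shorter genes were among them too, such as Bcl2l15, 23.6 kb long with 4 of 15 regions in the class of both Fast lists, and Tspan1, a tetraspanin gene 5.74 kb long with 3 of 7. In the reverse class, Nat8, an acetyltransferase gene 6.47 kb long, had 3 of 7. Nfe2l2, which encodes the regulator of the antioxidant response, had 3 of 11 regions in both Fed and no Fast list.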

How the data were processed

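H3K9ac CUT&Tag peaks were deposited as 2 lists per sample. Per the labels' protocols, crypts were isolated with EDTA, dissociated with trypsin and processed with a CUT&Tag kit from Epicypher. The submitters' processing notes name Bowtie, SAMtools, FastQC and mm10, the UCSC name for GRCm38, without versions. Peak names begin with MACS, and the list names call the data downsampled. The caller's version, its threshold and any use of the IgG control are not given in the sources used here. The deposited score of a peak is the authors' own value with no stated unit, at least 50 in these lists, and was used only to rank peaks within a list.

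Peaks sharing at least 1 bp were merged. A gene was marked by a peak within 1 kb of its start in a RefSeq table for GRCm38.p6 (17492 of 21887 protein-coding genes), or of either end where no start was listed (4395 genes). The score percentile is the rank of a peak within its list. Named genes were the 12 per direction, in the class with all peaks and with peaks of at least 500 bp and with a symbol other than a Gm, LOC or Rik name, with the highest lower percentile of their 2 lists. To these were added members of 23 gene lists in either class (326 of 327 symbols matched) and genes fixed by name; some genes of these lists are not reported here. The 4 regions per direction, over 1 kb from every gene end, followed the same rank. Members, lists and rules were chosen with earlier results of these data known, and the comparison of widths was added after the data were seen. Python 3.11.15, pandas 2.3.3, numpy 2.4.6 and matplotlib 3.10.9 were used. Counting was tested on simulated lists.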

Additional observations from a re-analysis of the deposited data

Results flagged for a closer look

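Dnajb4, which encodes a chaperone of the Hsp40 family, went opposite ways with and without tetracycline. With tetracycline, H3K9ac at its start (chr3:152191470-152193073) covered 445 bp in Fed 1, 624 bp in Fed 2, 1421 bp in Fast 1 and 1411 bp in Fast 2, a log2 ratio of 1.43, Fast over Fed. Without tetracycline it covered 419 bp in Fed 1 and 534 bp in Fed 2, and neither Fast list had a peak. Every Fast list thus lay above every Fed list in the one state and below in the other, with an uncalled peak counted as 0 bp. The difference with tetracycline was the rule by which this region was picked, among 9 such regions. Without tetracycline, 16.5% of all 6814 shared regions were narrower in both Fast lists. The difference was not tested. H3K27ac with tetracycline overlapped between feeding states at this start, with no peak in Fed 1, 486 bp in Fed 2, 561 bp in Fast 1 and no peak in Fast 2.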

How the results depend on the processing

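With peaks of at least 500 bp, the log2 ratio of peak number was 0.10, the difference in share at gene starts -3.41 points, regions in both Fast lists 1099 and the log2 ratio of both region counts -0.018, reversed from 1.08. With every list reduced to its 24643 top-scoring peaks, these were 0 (fixed by construction), -11.3, 300 and -2.91 (reversed), and covered length reversed to -0.51. Regions in both Fed lists became 2258, the wide-peak counts 201 and 1980, the gene counts 64 and 1023, and regions 2 times as wide in Fed 10. With only the better-scoring 0.5 of each list, the share difference was -24.5, regions in both Fast lists 942 (563 wide), their log2 ratio -0.036 (reversed) and the gene counts 235 and 450. Bridging gaps gave 31 regions wider in Fed. Leaving out a list leaves 1 in its group, whose class then needs 1 list and the other class 2. The log2 ratio of region counts then lay between -3.21 and 4.98. It was reversed without Fed 1 (-3.21) and without Fed 2 (-1.15), where this unequal rule favours the fed class. Regions in Fast lay between 3852 and 79127 (wide 1807 to 21538) and in Fed between 2509 and 35620 (wide 2235 to 15199). Genes lay between 730 and 1633 (Fast) and between 526 and 1661 (Fed). Regions 2 times as wide lay between 34 and 170 (Fast) and between 33 and 321 (Fed). Beyond the unequal rule, the cause of the changes was not tested. Pairing lists of the same number as a replicate block left the mean differences at 0.98, 0.41 and -14.2, as pairing cannot move a mean. Of the values with all 4 lists kept, 81 stayed, 23 moved and 4 reversed. Settings in which no width ratio at Hkdc1 was obtained are not among them. Depth is unknown, so its part in list size could not be examined.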
